A study of Mus musculus with 15 samples.

Results

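The genes described here are 32 mouse genes that make, sense and export cholesterol, taken by symbol from a fixed list. The list was chosen with earlier results of these data known, so the share of members called is a description only. They comprise 19 enzymes of cholesterol synthesis (8 of the mevalonate stage and 11 of the sterol stage), 5 genes of the SREBP sensing system, the sterol carrier *Stard4*, the 2 liver X receptors (LXR) and 5 LXR target genes of efflux and lipoprotein handling. All 32 were among the 35142 genes with an estimate, and all 32 were among the 15360 genes that passed the filter of at least 1 CPM (counts scaled to library size) in at least 2 cultures. RNA was sequenced from 15 cultures of dissociated cerebellar cells of wild-type C57BL/6 pups, taken at postnatal day 0 to 4, at day 14 in vitro. Of these, 5 were unstimulated, 5 received murine IL-12p70, a recombinant form of the cytokine interleukin-12, at 30 ng/ml and 5 received it at 100 ng/ml, in both cases for 18 h. The unstimulated cultures had the same genotype and age in vitro. The labels name the cells neurons, but they give no sort, and they do not say whether replicates of a group come from separate platings or pups, so the p-values measure only the spread between these samples, which may be technical.

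Cholesterol in the brain is made locally, since lipoproteins of the blood do not cross the blood-brain barrier, and in the developing brain glia and neurons both carry out the synthesis. When sterol in the endoplasmic reticulum is low, SCAP escorts the SREBP proteins to the Golgi, where proteolysis releases a factor that turns on the synthesis enzymes; INSIG proteins hold the complex back when sterol is plentiful. When cholesterol and its oxysterol derivatives accumulate, LXR turns on the exporters ABCA1 and ABCG1, the lipoprotein APOE that glia release to carry sterol, and MYLIP, a ubiquitin ligase that degrades lipoprotein receptors. The list thus holds 2 sets of genes that a change in cell sterol is known to move in opposite directions.

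Depth was between 25746096 and 38435850 assigned reads per culture, and each member was covered by at least 89 reads in every culture (*Nr1h3*, the least expressed). The label "neurons" was checked against 15 markers of cerebellar neurons: their summed level was 208 to 273 TPM (transcript abundance, a level per length) in unstimulated cultures, and the Purkinje cell gene *Pcp2* was close to 0. In the same cultures 15 microglia markers, of which 14 had an estimate, summed to 8936 to 12620 TPM, 12 markers of the oligodendrocyte lineage to 6728 to 9984 TPM and 11 astrocyte markers to 3839 to 4298 TPM. Each of the 3 glial lists thus summed to more than the neuron list in every culture. Since these are bulk samples, fewer cells of a type and less RNA per cell cannot be told apart.

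The stretch of 150 bases before the transcription start is shown for 6 synthesis enzymes: *Hmgcs1*, *Mvk*, *Pmvk*, *Nsdhl*, *Hsd17b7* and *Msmo1*, of which 5 passed the test below in at least 1 comparison and *Hmgcs1* holds the only sterol regulatory element core found. Sequences are those of RefSeq on GRCm38.p6, 5′ to 3′ on the strand of the gene, and capitals mark the CCAAT box (the binding letters of NF-Y, which works together with SREBP, read on both strands, so that ATTGG marks it too) and the core of the sterol regulatory element, TCACNCCAC.
Hmgcs1 (chr13:119690201-119690350, plus strand): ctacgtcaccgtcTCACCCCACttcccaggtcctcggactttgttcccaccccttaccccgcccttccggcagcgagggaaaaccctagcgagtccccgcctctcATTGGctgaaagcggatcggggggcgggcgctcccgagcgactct
Mvk (chr5:114444119-114444268, plus strand): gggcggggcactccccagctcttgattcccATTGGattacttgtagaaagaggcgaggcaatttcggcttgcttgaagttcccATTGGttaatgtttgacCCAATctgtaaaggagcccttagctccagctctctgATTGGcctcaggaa
Pmvk (chr3:89454391-89454540, plus strand): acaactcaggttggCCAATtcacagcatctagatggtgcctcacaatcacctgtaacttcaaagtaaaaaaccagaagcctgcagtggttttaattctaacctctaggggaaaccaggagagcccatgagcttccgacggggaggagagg
Nsdhl (chrX:72918371-72918520, plus strand): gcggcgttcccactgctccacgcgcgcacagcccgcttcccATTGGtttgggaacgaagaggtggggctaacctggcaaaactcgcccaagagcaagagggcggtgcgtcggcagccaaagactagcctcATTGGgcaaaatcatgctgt
Hsd17b7 (chr1:169969206-169969355, minus strand): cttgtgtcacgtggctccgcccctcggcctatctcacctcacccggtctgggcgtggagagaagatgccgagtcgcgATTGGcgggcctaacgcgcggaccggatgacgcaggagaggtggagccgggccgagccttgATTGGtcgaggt
Msmo1 (chr8:64733579-64733728, minus strand): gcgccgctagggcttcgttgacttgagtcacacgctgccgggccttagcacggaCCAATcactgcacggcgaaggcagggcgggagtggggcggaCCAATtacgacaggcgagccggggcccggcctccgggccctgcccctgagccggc
All the promoters shown hold the CCAAT box in this stretch, with 4 copies in *Mvk*, 2 each in *Nsdhl*, *Hsd17b7* and *Msmo1*, and 1 each in *Hmgcs1* and *Pmvk* (for *Pmvk* the first of 2 starts in the RefSeq table). Over the whole window, from 250 bases before to 50 bases after the start, 27 of 32 members were matched in the table; *Sqle*, *Fdft1*, *Fdps*, *Stard4* and *Abcg1* were not. The CCAAT box was present in 15 of the 16 synthesis enzymes matched (93.8%), against 41.1% of all 27025 genes of the table, and *Acat2* was the enzyme without it. The core of the sterol regulatory element was present in *Hmgcs1* alone, 137 bases before the start, against 1.44% of all genes. The search allowed no changed letter, so it cannot tell whether the other members hold such an element. The LXR element, written as 2 copies of AGGTCA 4 bases apart, was in none of the 27 members and in only 4 of 27025 genes (0.0148%). An exact match this rare cannot tell whether the members hold LXR elements. A single AGGTCA was in 3 of 27 members (11.1%), against 18.1% of all genes, and in 0 of the 4 LXR targets matched. A match of letters is a description of the window and not a measured binding site.

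In unstimulated cultures the members spanned a wide range of levels per length. *Apoe* was by far the most abundant at 14322 ± 1966 TPM (SD, n = 5), followed by the transcription factor gene *Srebf1* at 353 ± 21.2 TPM and by *Hmgcs1*, which encodes the enzyme that makes HMG-CoA, at 241 ± 21.4 TPM. *Abca1* and *Msmo1* both stood at 173 TPM, and *Fdps*, *Sqle*, *Srebf2* and *Insig1* lay between 121 and 126 TPM. The lowest were *Nr1h3* at 5.36 ± 0.948 TPM, *Stard4* at 18.4 TPM and *Tm7sf2* at 20.2 TPM. The spread between unstimulated cultures, as the coefficient of variation of CPM, was below 7% for 27 members and 15.3% to 17.8% for *Hsd17b7*, *Mylip*, *Apoe*, *Nr1h3* and *Abcg1*, so the last 5 had the least stable baselines.

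**Figure D1:**
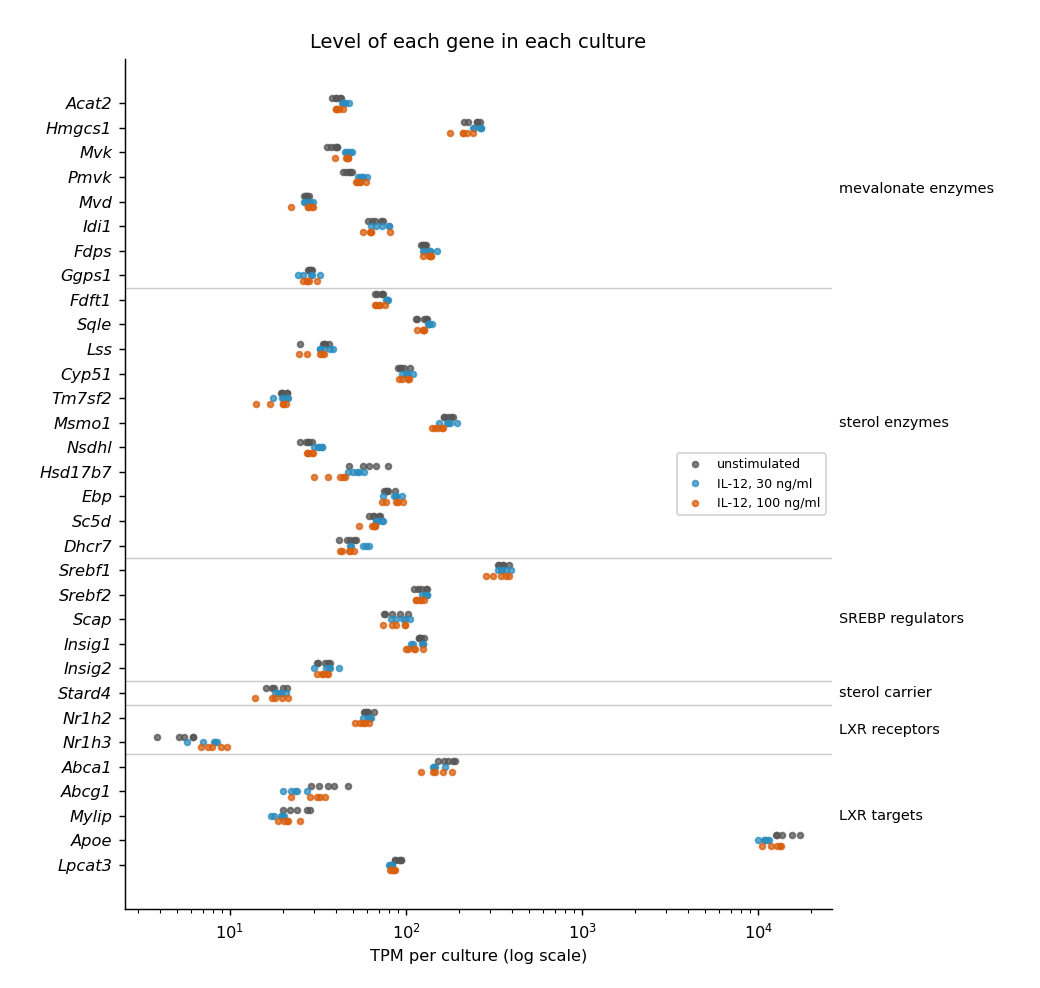
Level of each of the 32 genes in each of the 15 cultures, in TPM on a log axis, with unstimulated cultures in grey, 30 ng/ml in blue and 100 ng/ml in orange. *Apoe* lies far to the right of all other members and *Nr1h3* to the left, and in most rows the 3 colours overlap.

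The first question was how many of the genes changed with IL-12. In 1 edgeR quasi-likelihood fit of all 15 cultures, with Benjamini-Hochberg adjustment (FDR) over 15360 genes and a call at an FDR under 0.05, 5 of 32 members (15.6%) were called at 100 ng/ml against unstimulated, where 9.77% of all genes tested were called. *Mvk*, *Pmvk* and *Nr1h3* were higher, and *Msmo1* and *Hsd17b7* were lower. At 30 ng/ml 8 of 32 members (25.0%) were called, against 7.87% of all genes: *Mvk*, *Pmvk*, *Nsdhl* and *Nr1h3* were higher, and *Hsd17b7*, *Abcg1*, *Mylip* and *Apoe* were lower. For the mean of both doses 9 of 32 members (28.1%) were called, against 11.9% of all genes. These were the 8 of the 30 ng/ml comparison and *Abca1*. Both doses share the unstimulated cultures, so their lists are not independent of each other.

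Between the doses, 100 against 30 ng/ml, edgeR called 0 of 32 members, where 0.579% of all genes were called. At an unadjusted p under 0.05 there were 9 members, and DESeq2 and edgeR's likelihood-ratio test called 1 each, *Hmgcs1*. Complete separation of the groups, with every culture of one beyond every culture of the other, was seen for 4 members at 100 ng/ml (7.17% of all genes), for 6 at 30 ng/ml (8.88%) and for 1 between the doses (3.01%), which was *Sqle*.

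**Figure D2:**
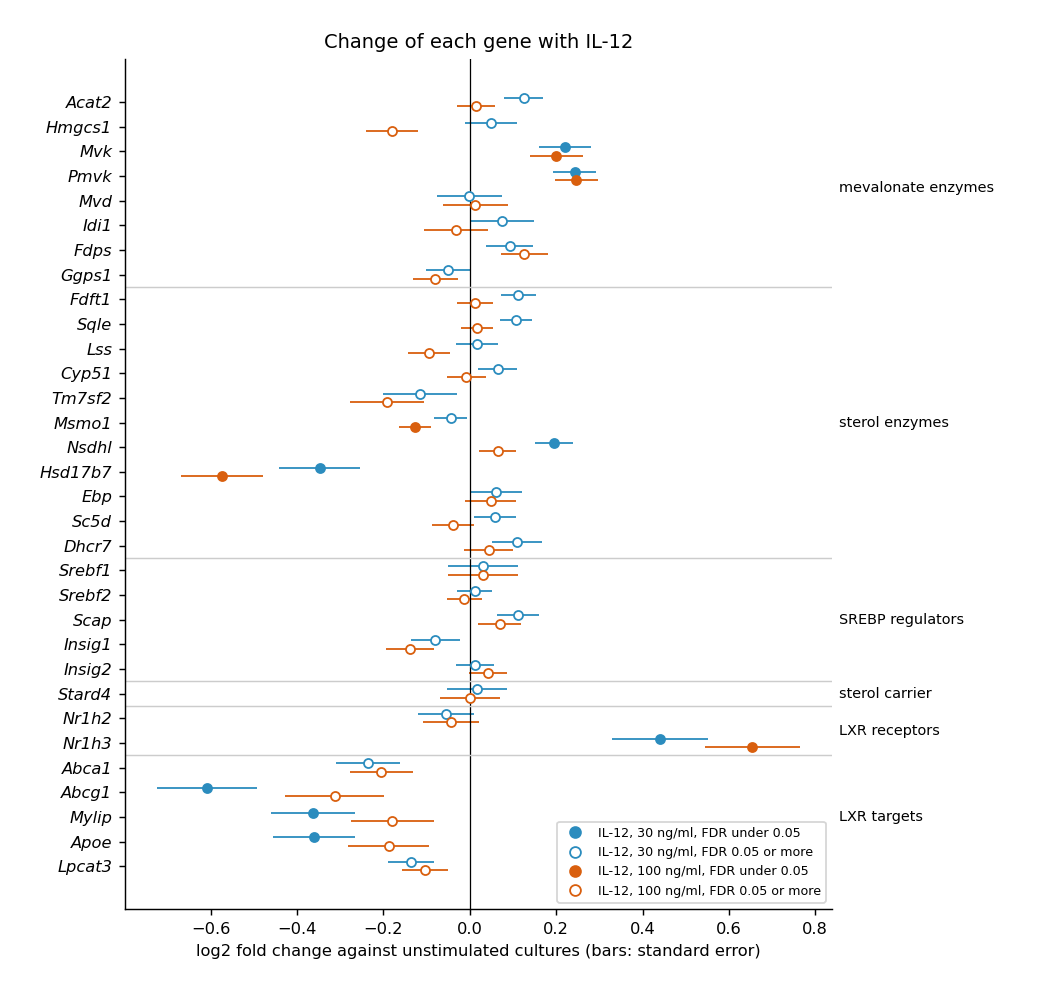
Log2 fold change of each gene against unstimulated cultures at 30 ng/ml (blue) and 100 ng/ml (orange), with bars for the standard error and filled points for an FDR under 0.05. The synthesis enzymes scatter about 0 with *Pmvk* and *Mvk* to the right and *Hsd17b7* to the left, *Nr1h3* is the point farthest to the right, and all 5 LXR targets lie to the left of 0 at both doses.

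The mevalonate stage turns acetyl-CoA into the isoprenoid farnesyl diphosphate. Of its 8 genes, 2 rose at each dose, where 5.83% of all genes were called higher at 100 ng/ml and 4.16% at 30 ng/ml, and none fell. They were *Mvk* and *Pmvk*, whose enzymes add the first and the next phosphate to mevalonate. At 100 and 30 ng/ml the 8 had median log2 fold changes of 0.01 and 0.08, beside -0.00 and 0.00 over all genes tested.

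*Pmvk* (chr3:89361758-89376323 of GRCm39, plus strand), phosphomevalonate kinase, was at 30.2, 29.9, 30.9, 29.4 and 31.4 CPM in unstimulated cultures, at 35.9, 36.2, 35.5, 37.9 and 34.1 CPM at 30 ng/ml and at 40.7, 33.9, 34.7, 35.0 and 35.6 CPM at 100 ng/ml. Every stimulated culture was above every unstimulated one. The log2 fold change was 0.25 ± 0.05 (SE) at 100 ng/ml (edgeR FDR = 0.0049) and 0.24 ± 0.05 at 30 ng/ml (edgeR FDR = 0.0069), and it kept its call when any single culture was left out (FDR at most 0.0219). Its main transcript, Pmvk-201, went from 40.0 to 48.4 and 48.5 TPM.

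*Mvk* (chr5:114582267-114601803 of GRCm39, plus strand), mevalonate kinase, was at 34.9, 34.7, 35.0, 32.7 and 34.4 CPM without IL-12, at 38.0, 37.4, 42.0, 42.8 and 39.9 CPM at 30 ng/ml and at 41.4, 32.8, 42.3, 40.9 and 39.7 CPM at 100 ng/ml. All cultures at 30 ng/ml were above all unstimulated ones, while replicate 2 of 100 ng/ml lay within the unstimulated range. The log2 fold change was 0.20 ± 0.06 at 100 ng/ml (edgeR FDR = 0.0443) and 0.22 ± 0.06 at 30 ng/ml (edgeR FDR = 0.0326). The call at 100 ng/ml was lost on leaving out any 1 of 11 cultures (each unstimulated culture, replicates 3 and 5 of 30 ng/ml and replicates 1, 3, 4 and 5 of 100 ng/ml), with an FDR from 0.0525 to 0.113, and at 30 ng/ml it was lost without unstimulated replicate 1, 3, 4 or 5 or without replicate 3, 4 or 5 of 30 ng/ml, with an FDR of up to 0.0873. The call at 100 ng/ml was also lost with another scaling (RLE), no filter, the replicate block or only the groups compared. Without replicate 2 of 100 ng/ml the FDR of *Mvk* at 100 ng/ml was 0.0014. The call for the mean of both doses, 0.21 ± 0.05 (edgeR FDR = 0.0155), held whichever culture was left out.

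*Hmgcs1*, which makes HMG-CoA, was at 512, 509, 460.3, 442 and 492 CPM without IL-12, at 514, 516, 527, 474 and 468 CPM at 30 ng/ml and at 369, 469.8, 426, 430.0 and 437 CPM at 100 ng/ml. Of the 100 ng/ml cultures 4 of 5 were below every unstimulated culture. Its change of -0.18 ± 0.06 on the log2 scale at 100 ng/ml did not pass (edgeR FDR = 0.0684), nor did 0.05 ± 0.06 at 30 ng/ml (edgeR FDR = 0.69) or -0.23 ± 0.06 between the doses (edgeR FDR = 0.117). Without replicate 2 of 100 ng/ml, the culture with its highest value in that group, it was called both at 100 ng/ml and between the doses, with FDRs of 0.0187 and 0.0422. Leaving out that culture raised the share of all genes called from 9.77% to 19.1% at 100 ng/ml and from 0.579% to 0.959% between the doses. *Hmgcs1* was also called at 100 ng/ml without unstimulated replicate 4, with an FDR of 0.0435.

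The other 5 mevalonate genes, *Acat2*, *Mvd*, *Idi1*, *Fdps* and *Ggps1*, passed no comparison in edgeR. Against unstimulated cultures their log2 fold changes lay between -0.08 (*Ggps1* at 100 ng/ml) and 0.13 (*Fdps* at 100 ng/ml), and between the doses the lowest were those of *Acat2* and *Idi1*, both at -0.11. *Fdps* was called at 100 ng/ml and for the mean of both doses without replicate 2 of 100 ng/ml, where 19.1% and 18.5% of all genes were called. *Acat2* encodes the thiolase that joins acetyl units, *Mvd* and *Idi1* the next enzymes after *Pmvk*, *Fdps* farnesyl diphosphate synthase, and *Ggps1* the enzyme of the branch to protein prenylation. Mean levels in unstimulated, 30 and 100 ng/ml cultures were 40.6, 44.9 and 41.2 TPM for *Acat2*, 27.2, 27.7 and 27.3 TPM for *Mvd*, and 67.6, 72.7 and 65.5 TPM for *Idi1*. They were 126, 135 and 134 TPM for *Fdps*, and 28.4, 28.1 and 27.9 TPM for *Ggps1*. *Acat2* has a close copy, Acat3, and overlaps *Tcp1* on the opposite strand, and *Ggps1* overlaps *Arid4b*, so reads of the overlap are uncertain where the estimates did not use strand, which the sources used here do not give.

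The sterol stage joins 2 farnesyl units into squalene, closes the rings and trims lanosterol to cholesterol. Of its 11 genes, 2 fell at 100 ng/ml (*Hsd17b7* and *Msmo1*), and at 30 ng/ml 1 fell (*Hsd17b7*) and 1 rose (*Nsdhl*). Of all genes, 3.93% were called lower at 100 ng/ml and 3.71% at 30 ng/ml, so 1 of 11 is near that share. *Msmo1*, *Nsdhl* and *Hsd17b7* encode successive parts of the same reaction series, the removal of the methyl groups at carbon 4 of the sterol ring: MSMO1 oxidizes the methyl group, NSDHL removes the carboxyl group and HSD17B7 reduces the ketone that remains. At 100 and 30 ng/ml the 11 had median log2 fold changes of -0.01 and 0.06.

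*Hsd17b7* had the lowest fold change at 100 ng/ml of all 32 members. It lies at chr1:169777093-169796813 of GRCm39, minus strand. It was at 148, 126, 106, 102 and 127 CPM in unstimulated cultures, at 105, 102, 94.7, 86.7 and 90.3 CPM at 30 ng/ml and at 66.9, 89.0, 80.6, 87.9 and 85.6 CPM at 100 ng/ml. At 100 ng/ml no culture reached the lowest unstimulated value, while replicate 1 of 30 ng/ml did. It fell by 0.57 ± 0.10 on the log2 scale at 100 ng/ml (edgeR FDR = 0.0011), with a log2 fold change of -0.35 ± 0.09 at 30 ng/ml (edgeR FDR = 0.0309); between the doses it was -0.23 ± 0.10, which did not pass (edgeR FDR = 0.329). The call at 100 ng/ml held whichever culture was left out (FDR at most 0.0044). The call at 30 ng/ml was lost without unstimulated replicate 1 or 5 or replicate 3, 4 or 5 of 30 ng/ml, with FDRs of up to 0.0803. With effective length offsets that call was lost too (edgeR FDR = 0.145). Its longest transcript, Hsd17b7-201, went from 36.4 ± 6.54 TPM (SD, n = 5) to 29.0 ± 2.91 and 24.3 ± 3.22 TPM.

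Markers of the oligodendrocyte lineage moved in the same direction as *Hsd17b7*. Of 12 such markers, 4 fell at 100 ng/ml (among them *Mbp*, *Mag* and *Ugt8a*) and 1 at 30 ng/ml (*Cspg4*). Of all genes, 3.93% were called lower at 100 ng/ml and 3.71% at 30 ng/ml. The median of these markers was -0.17 at 100 ng/ml. Their summed level was 6728 to 9984 TPM without IL-12, 6738 to 8279 TPM at 30 ng/ml and 5983 to 7276 TPM at 100 ng/ml. With the mean level of these markers in each culture added to the fit, an alternative chosen after seeing the data, *Hsd17b7* at 100 ng/ml was -0.28 ± 0.08 (edgeR FDR = 0.0821) and at 30 ng/ml -0.17 ± 0.07 (edgeR FDR = 0.149). In that fit the share of all genes called at 100 ng/ml fell to 2.15%. With the microglia markers in their place, *Hsd17b7* was -0.61 ± 0.09 at 100 ng/ml (edgeR FDR = 2.8e-04). The part of oligodendrocytes in the fall was not tested.

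*Msmo1* (chr8:65170603-65186830 of GRCm39, minus strand) was at 159, 165, 165, 160.2 and 161 CPM without IL-12, at 157, 155, 163, 165 and 146 CPM at 30 ng/ml and at 146, 149, 145, 153 and 149 CPM at 100 ng/ml. All cultures at 100 ng/ml were below all unstimulated ones, by a small step: the log2 fold change was -0.13 ± 0.04 (edgeR FDR = 0.0406) at 100 ng/ml and -0.04 ± 0.04 (edgeR FDR = 0.534) at 30 ng/ml. The call was lost without any 1 of the 5 unstimulated cultures, replicate 1 or 2 of 30 ng/ml or replicate 1, 3 or 5 of 100 ng/ml, with FDRs from 0.0549 to 0.105. Effective length offsets, the replicate block and only the groups compared lost the call too. With no filter it was also lost, at the highest edgeR FDR (0.172).

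*Nsdhl* (chrX:71961712-72002129 of GRCm39, plus strand) was at 37.1, 36.9, 36.5, 34.0 and 35.2 CPM without IL-12, at 42.2, 40.4, 43.2, 42.0 and 38.1 CPM at 30 ng/ml and at 37.9, 35.9, 36.7, 38.8 and 38.7 CPM at 100 ng/ml. It rose at 30 ng/ml, where all cultures were above all unstimulated ones, by 0.20 ± 0.04 (edgeR FDR = 0.0111), a call that held whichever culture was left out. At 100 ng/ml the log2 fold change was 0.06 ± 0.04 (edgeR FDR = 0.38), and the difference between the doses, -0.13 ± 0.04, did not pass (edgeR FDR = 0.22). The call for the mean of both doses, 0.13 ± 0.04 (edgeR FDR = 0.0333), was lost on leaving out any 1 of 8 cultures (replicates 3, 4 and 5 of the unstimulated group, 1, 3 and 4 of 30 ng/ml and 4 and 5 of 100 ng/ml), with FDRs up to 0.0979. It was lost too with no filter, with effective length offsets and with the replicate block.

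The other 8 sterol-stage genes passed no comparison in edgeR, with log2 fold changes against unstimulated cultures between -0.19 (*Tm7sf2* at 100 ng/ml) and 0.11 (*Fdft1* at 30 ng/ml). They are *Fdft1* (squalene synthase), *Sqle* (squalene epoxidase, a rate-limiting step), *Lss* (lanosterol synthase), *Cyp51* (lanosterol demethylase), *Tm7sf2* (a sterol reductase), *Ebp* (an isomerase), *Sc5d* (a desaturase) and *Dhcr7* (the last reductase of its branch). *Sqle* was at 123, 136 and 123 TPM in unstimulated, 30 and 100 ng/ml cultures, and *Fdft1* at 71.0, 78.0 and 70.3 TPM. Both were highest at 30 ng/ml, with *Fdft1* above every unstimulated culture there (log2 fold change 0.11 ± 0.04, edgeR FDR = 0.103) and *Sqle* above every 100 ng/ml culture. *Sqle* at 30 ng/ml, 0.11 ± 0.04 (edgeR FDR = 0.0829), was called by DESeq2, with library size alone and without unstimulated replicate 2. *Lss* was at 32.8, 34.9 and 30.5 TPM, *Cyp51* at 95.9, 101 and 99.2 TPM, and *Tm7sf2* at 20.2, 20.0 and 18.3 TPM. *Tm7sf2* overlaps *Vps51* on the same strand, so its reads are uncertain. *Ebp* was at 79.2, 86.1 and 84.9 TPM, *Sc5d* at 66.8, 70.1 and 63.4 TPM, and *Dhcr7* at 47.6, 55.0 and 46.3 TPM.

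Across all 19 enzymes, 14 of 19 had a log2 fold change above 0 at 30 ng/ml (median 0.06) and 10 of 19 at 100 ng/ml (median 0.01), beside -0.00 and 0.00 for all genes at 100 and 30 ng/ml. Of 11 astrocyte markers 9 were above 0 at 30 ng/ml (median 0.17), where *Slc1a3*, *Aldh1l1*, *Aldoc* and *Gjb6* rose, and the median was 0.07 at 100 ng/ml, where *Aldoc* and *Gjb6* rose and *Gja1* fell. Between the doses 9 of these 11 markers were below 0, and the part of astrocytes in the levels of the enzymes was not tested. For the enzymes between the doses 16 of 19 were below 0, among them all 11 of the sterol stage, with a median of -0.08. None of these differences between the doses passed in edgeR, while 8 of 19 had an unadjusted p under 0.05; the 2 sets of 5 cultures are the same for every enzyme, so the 19 signs are not independent. The cultures in which several enzymes were low together were replicate 2 of 100 ng/ml (the lowest of its group for 10 of 19 enzymes and the highest for 6), replicate 5 of 30 ng/ml (the lowest for 13) and unstimulated replicate 4 (the lowest for 11).

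The SREBP system controls the transcription of these enzymes through escort and proteolysis, so the mRNA of its genes does not measure its activity. None of its 5 genes passed at either dose, between the doses or for the mean. At an unadjusted p under 0.05 each dose had 1, the mean of both doses had 2 and the comparison between the doses had 0, and DESeq2 called 0 in every comparison. *Srebf2*, whose protein drives the cholesterol enzymes, was at 285, 293, 295, 282 and 302 CPM without IL-12, at 295, 287, 302, 293 and 289.8 CPM at 30 ng/ml and at 292, 262, 304, 289 and 296 CPM at 100 ng/ml. The 3 groups overlapped throughout, with log2 fold changes of -0.01 ± 0.04 at 100 ng/ml (edgeR FDR = 0.881) and 0.01 ± 0.04 at 30 ng/ml (edgeR FDR = 0.91). Its standard error was among the smallest of the list. The locus also holds *Mir33* on the same strand.

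*Srebf1*, which favours fatty acid synthesis and is itself an LXR target, was at 353, 358 and 339.5 TPM in unstimulated, 30 and 100 ng/ml cultures, with a log2 fold change of 0.03 ± 0.08 at both doses. *Scap*, the escort, was at 86.0, 94.1 and 88.4 TPM (0.07 ± 0.05 at 100 ng/ml and 0.11 ± 0.05 at 30 ng/ml). *Insig1*, an SREBP target as well as its retention factor, was at 121, 118 and 110.2 TPM (-0.14 ± 0.06, edgeR FDR = 0.127, at 100 ng/ml and -0.08 ± 0.06 at 30 ng/ml). *Insig2* was at 34.1, 36.1 and 34.0 TPM (0.04 ± 0.04 and 0.01 ± 0.04). *Stard4*, which carries sterol between membranes, was at 18.4, 19.4 and 18.1 TPM, with log2 fold changes of -0.00 ± 0.07 and 0.02 ± 0.07. None of these changes passed in edgeR, DESeq2 or the likelihood-ratio test with all cultures. Without replicate 2 of 100 ng/ml edgeR called *Insig1* at 100 ng/ml and *Scap* for the mean of both doses, where 19.1% and 18.5% of all genes were then called.

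**Figure D3:**
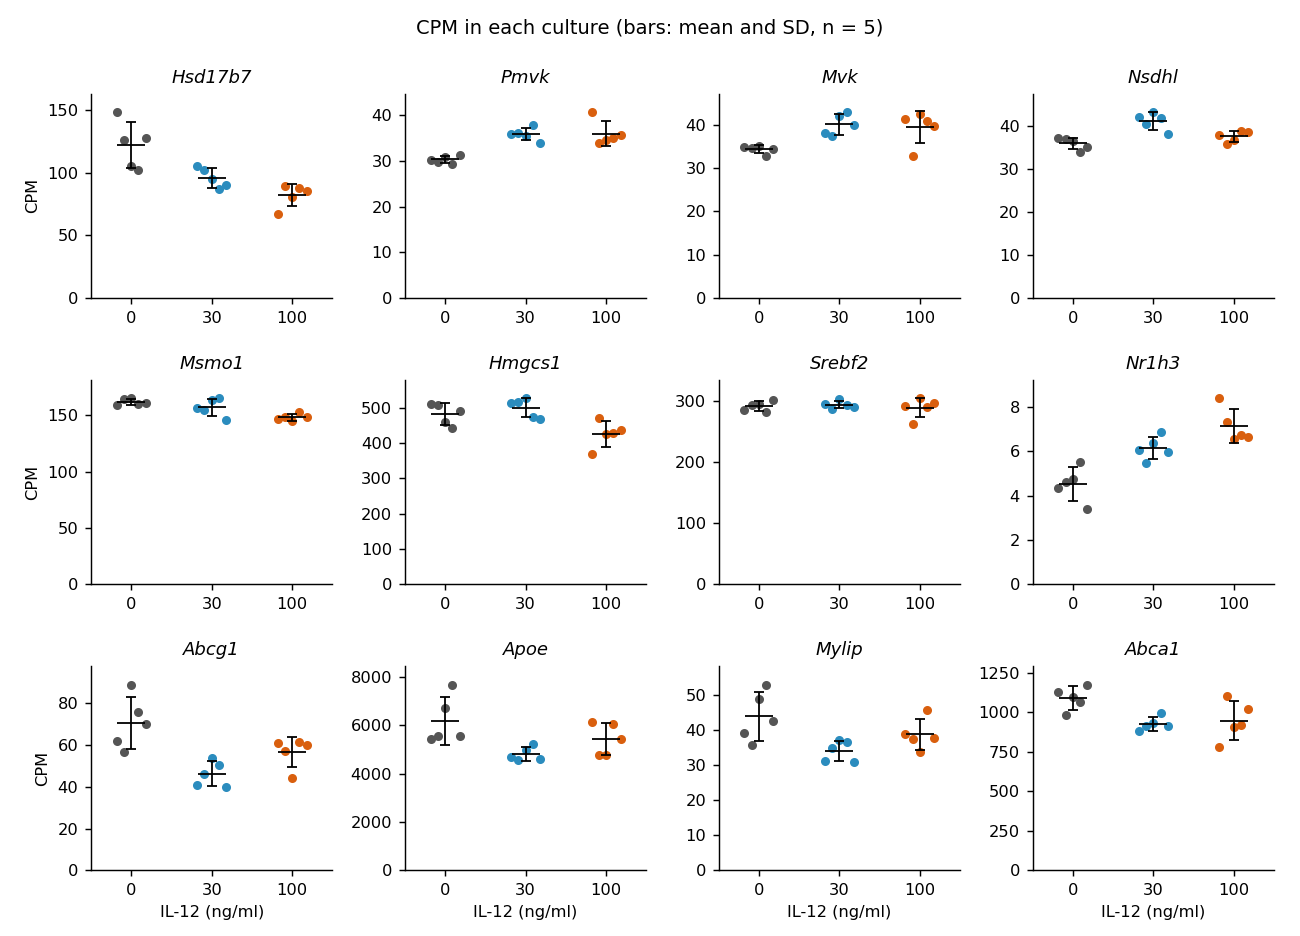
CPM of 12 genes in each culture, as points, at 0, 30 and 100 ng/ml IL-12, with the mean and SD (n = 5) as bars and each vertical axis starting at 0. *Hsd17b7* steps down with every 100 ng/ml culture below the unstimulated ones, *Pmvk* and *Nr1h3* step up, and *Srebf2* stays at one level.

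The liver X receptors were measured as *Nr1h3* (LXR-alpha, the form of macrophages and liver) and *Nr1h2* (LXR-beta, found in most cells). *Nr1h3* (chr2:91014394-91033417 of GRCm39, minus strand) was at 4.36, 4.62, 4.74, 5.51 and 3.40 CPM without IL-12, at 6.06, 5.48, 6.35, 6.86 and 5.97 CPM at 30 ng/ml and at 8.38, 7.30, 6.57, 6.72 and 6.66 CPM at 100 ng/ml. Every culture at 100 ng/ml was above every unstimulated culture, and at 30 ng/ml replicate 2 lay just inside the unstimulated range. It rose by 0.65 ± 0.11 on the log2 scale at 100 ng/ml (edgeR FDR = 0.0012) and by 0.44 ± 0.11 at 30 ng/ml (edgeR FDR = 0.0209), the highest fold changes of all members at both doses. The difference of 0.21 ± 0.11 between the doses did not pass (edgeR FDR = 0.423).

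The rise of *Nr1h3* held at 100 ng/ml whichever culture was left out. At 30 ng/ml it was lost without replicate 4 of 30 ng/ml (edgeR FDR = 0.0539) and with effective length offsets (edgeR FDR = 0.0828). Its counts were small, 89 to 268 reads per culture, and it overlaps *Acp2* on the opposite strand. Per transcript, Nr1h3-202 was at 3.31 ± 0.477, 3.47 ± 1.94 and 5.32 ± 1.12 TPM (SD, n = 5) in unstimulated, 30 and 100 ng/ml cultures. Nr1h3-201 was at 0.157 ± 0.300, 1.92 ± 0.996 and 0.614 ± 0.403 TPM, so the 2 transcripts differed in the dose with the higher level. With microglia markers in the fit the log2 fold change of *Nr1h3* was 0.69 ± 0.11 at 100 ng/ml (edgeR FDR = 6.6e-04) and 0.59 ± 0.15 at 30 ng/ml (edgeR FDR = 0.107). With oligodendrocyte-lineage markers it was 0.48 ± 0.14 (edgeR FDR = 0.086) and 0.34 ± 0.12 (edgeR FDR = 0.0926). *Nr1h2* was at 60.5, 61.2 and 56.6 TPM and did not pass (-0.04 ± 0.065 at 100 ng/ml and -0.06 ± 0.065 at 30 ng/ml), so per length it was the more abundant receptor in every group.

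All 5 genes listed here as LXR targets had a log2 fold change below 0 at both doses. *Srebf1*, an LXR target listed with the SREBP system, was at 0.03 at both doses. Of the 5 listed, 3 fell at 30 ng/ml (*Abcg1*, *Mylip* and *Apoe*), where 3.71% of all genes were called lower. DESeq2 and the likelihood-ratio test called 4 of the 5. The median log2 fold change was -0.36, beside 0.00 over all genes. At 100 ng/ml 0 of 5 passed in edgeR or DESeq2, with 2 at an unadjusted p under 0.05 and a median of -0.19. For the mean of both doses, where 5.22% of all genes were called lower, 4 of 5 fell: *Abca1*, *Abcg1*, *Mylip* and *Apoe*. Between the doses, 100 against 30 ng/ml, all 5 had a log2 fold change above 0 (median 0.17), and none of these differences passed in edgeR or DESeq2, with 1 at an unadjusted p under 0.05.

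*Abcg1* (chr17:31276649-31336969 of GRCm39, plus strand), which exports cholesterol to lipoprotein particles, was at 62.0, 56.4, 88.8, 75.6 and 69.8 CPM without IL-12, at 40.9, 45.8, 53.9, 50.5 and 40.1 CPM at 30 ng/ml and at 61.0, 57.1, 44.3, 61.6 and 59.7 CPM at 100 ng/ml. All cultures at 30 ng/ml were below all unstimulated ones, and those at 100 ng/ml overlapped with both other groups. Its change was -0.61 ± 0.12 at 30 ng/ml (edgeR FDR = 0.0045), a call that held whichever culture was left out, and -0.31 ± 0.11 at 100 ng/ml (edgeR FDR = 0.0923). It was called at 100 ng/ml without unstimulated replicate 2, with an FDR of 0.0424.

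*Apoe* (chr7:19430034-19434947 of GRCm39, minus strand) was at 5453, 5569, 6725, 7691 and 5549 CPM without IL-12, at 4699, 4554, 5001, 5244 and 4630.3 CPM at 30 ng/ml and at 6124, 4769, 4798, 6048 and 5460.2 CPM at 100 ng/ml. All cultures at 30 ng/ml were below all unstimulated ones, of which replicates 3 and 4 were high. On the log2 scale it differed by -0.36 ± 0.09 at 30 ng/ml (edgeR FDR = 0.0258) and -0.19 ± 0.09 at 100 ng/ml (edgeR FDR = 0.222). The call at 30 ng/ml was lost without unstimulated replicate 3 or 4 or replicate 1, 2 or 5 of 30 ng/ml, with FDRs up to 0.0727.

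*Mylip* (chr13:45543215-45565501 of GRCm39, plus strand) was at 39.2, 35.8, 48.8, 52.9 and 42.6 CPM without IL-12, at 31.2, 34.8, 37.0, 36.5 and 31.0 CPM at 30 ng/ml and at 38.8, 37.4, 33.8, 45.7 and 37.7 CPM at 100 ng/ml. The groups overlapped at both doses, with unstimulated replicate 2 the lowest of its group. On the log2 scale it differed by -0.36 ± 0.10 at 30 ng/ml (edgeR FDR = 0.029) and -0.18 ± 0.10 at 100 ng/ml (edgeR FDR = 0.258). That at 30 ng/ml lost its call without unstimulated replicate 3, 4 or 5 or replicate 1 or 5 of 30 ng/ml, with FDRs up to 0.0844.

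*Abca1* (chr4:53030787-53159900 of GRCm39, minus strand), the exporter that loads cholesterol onto lipid-poor apolipoproteins, was at 1132, 981, 1099.7, 1062 and 1175 CPM without IL-12, at 879, 915, 932, 993 and 911 CPM at 30 ng/ml and at 779, 1104, 909.6, 919 and 1019 CPM at 100 ng/ml. Of the 30 ng/ml cultures 4 of 5 were below every unstimulated culture. Neither dose passed alone, with -0.24 ± 0.07 at 30 ng/ml (edgeR FDR = 0.0586) and -0.20 ± 0.07 at 100 ng/ml (edgeR FDR = 0.088). At 30 ng/ml *Abca1* was called by DESeq2 (FDR = 0.024), by the likelihood-ratio test (FDR = 0.0279), with only the groups compared (FDR = 0.0132) and without unstimulated replicate 2 or replicate 1 or 2 of 100 ng/ml. The mean of both doses fell by 0.22 ± 0.06 (edgeR FDR = 0.0312). That call was lost without unstimulated replicate 1, 3, 4 or 5, without replicate 1 or 5 of 30 ng/ml or without replicate 3 of 100 ng/ml, with FDRs up to 0.0993. Effective length offsets lost it too. Without replicate 2 of 100 ng/ml *Abca1* was also called at 100 ng/ml, with an FDR of 0.0131, where 19.1% of all genes were called. *Lpcat3*, which remodels membrane phospholipids, was at 90.4, 82.0 and 84.1 TPM, with log2 fold changes of -0.14 ± 0.05 at 30 ng/ml (edgeR FDR = 0.133) and -0.10 ± 0.05 at 100 ng/ml (edgeR FDR = 0.229).

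For the mean of both doses *Abcg1* fell by 0.46 ± 0.10 (edgeR FDR = 0.0059), *Apoe* by 0.27 ± 0.08 (edgeR FDR = 0.035) and *Mylip* by 0.27 ± 0.08 (edgeR FDR = 0.0417). The first held whichever culture was left out. *Apoe* lost the call without unstimulated replicate 3 or 4, replicate 1, 2 or 5 of 30 ng/ml or replicate 3 of 100 ng/ml, with FDRs up to 0.124. *Mylip* lost it without unstimulated replicate 3, 4 or 5, replicate 1, 2 or 5 of 30 ng/ml or replicate 1, 3 or 5 of 100 ng/ml, with FDRs up to 0.141. With effective length offsets *Mylip* lost the call too.

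Microglia, the brain macrophages, express *Apoe* and *Abcg1* as other macrophages do, and their markers moved with the LXR targets. Astrocyte markers did not: at 30 ng/ml 9 of 11 were above 0 and 2 below, with a median of 0.17. At that dose 4 of them rose, where 4.16% of all genes were called higher. At 100 ng/ml 6 of 11 were above 0 (median 0.07). The part of astrocytes in the level of the LXR targets was not tested. Of 14 markers of cerebellar neurons tested, 10 were below 0 at each dose, with medians of -0.42 at 30 ng/ml and -0.20 at 100 ng/ml. Of these neuron markers *Tubb3* rose and *Calb1* fell at both doses, and *Gad1* fell at 30 ng/ml. Their summed level was 208 to 273 TPM without IL-12, 238 to 280 TPM at 30 ng/ml and 235 to 272 TPM at 100 ng/ml, and the part of neurons in the level of the LXR targets was not tested. Of 13 microglia markers tested 9 fell at 30 ng/ml, where 3.71% of all genes were called lower, with a median log2 fold change of -0.42. At 100 ng/ml 0 of 13 passed in edgeR or DESeq2 (1 at an unadjusted p under 0.05) and the median was -0.13. The summed level of the microglia markers was 8936 to 12620 TPM without IL-12, 7125 to 8905 TPM at 30 ng/ml and 8513 to 11197 TPM at 100 ng/ml, so that every 30 ng/ml culture was below every unstimulated one. Defining markers were well above 0, with *Cx3cr1* at 137 ± 15.3 TPM and *Tmem119* at 66.6 ± 11.8 TPM (SD, n = 5) in unstimulated cultures, and *Siglech* was close to 0. The unstimulated cultures with the most microglia marker RNA, replicates 3 and 4, were those with the most *Apoe*, *Abcg1*, *Mylip* and *Lpcat3*. *Abca1* differed, with its highest unstimulated values in replicates 5 and 1 (1175 and 1132 CPM).

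With the mean level of the microglia markers in each culture added to the fit, again an alternative chosen after seeing the data, *Apoe*, *Mylip* and *Lpcat3* came close to 0 at 30 ng/ml, at -0.06 ± 0.09, 0.02 ± 0.05 and -0.00 ± 0.06. *Abcg1* was at -0.17 ± 0.08, and *Abca1* at -0.18 ± 0.10, near its value of -0.24 without the covariate. None of the 5 passed at that dose (lowest edgeR FDR 0.382). At 100 ng/ml *Abcg1* passed in that fit, at -0.20 ± 0.06 (edgeR FDR = 0.0294). The covariate itself differed between the groups: that fit called 0.521% of all genes at 30 ng/ml and 1849 of 15360 at 100 ng/ml, and the standard error of *Pmvk* at 30 ng/ml went from 0.05 to 0.07. No member was called at 30 ng/ml in that fit: *Pmvk* was at 0.27 ± 0.07 (edgeR FDR = 0.107) and *Hsd17b7* at -0.53 ± 0.12 (edgeR FDR = 0.0585). The part of microglia in the lower level of the LXR targets was not tested beyond these values.

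**Figure D4:**
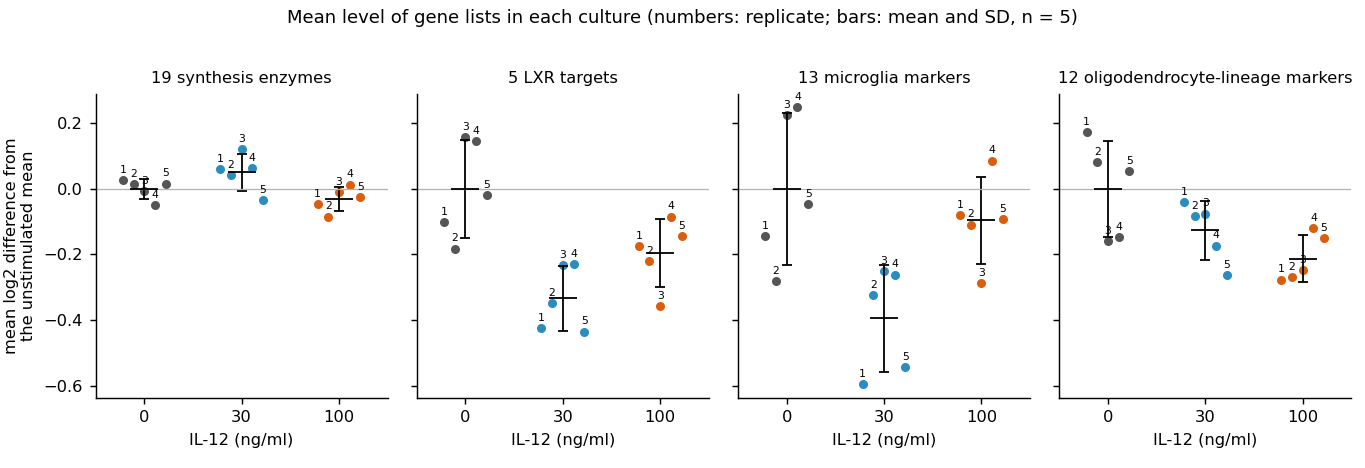
Mean log2 difference of 4 gene lists from the unstimulated mean in each culture (points, numbered by replicate), with the mean and SD (n = 5) as bars. The 5 LXR targets and the 13 microglia markers have the same order of groups and the same unstimulated replicates on top (3 and 4), while the 19 synthesis enzymes stay near 0.

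**Figure D5:**
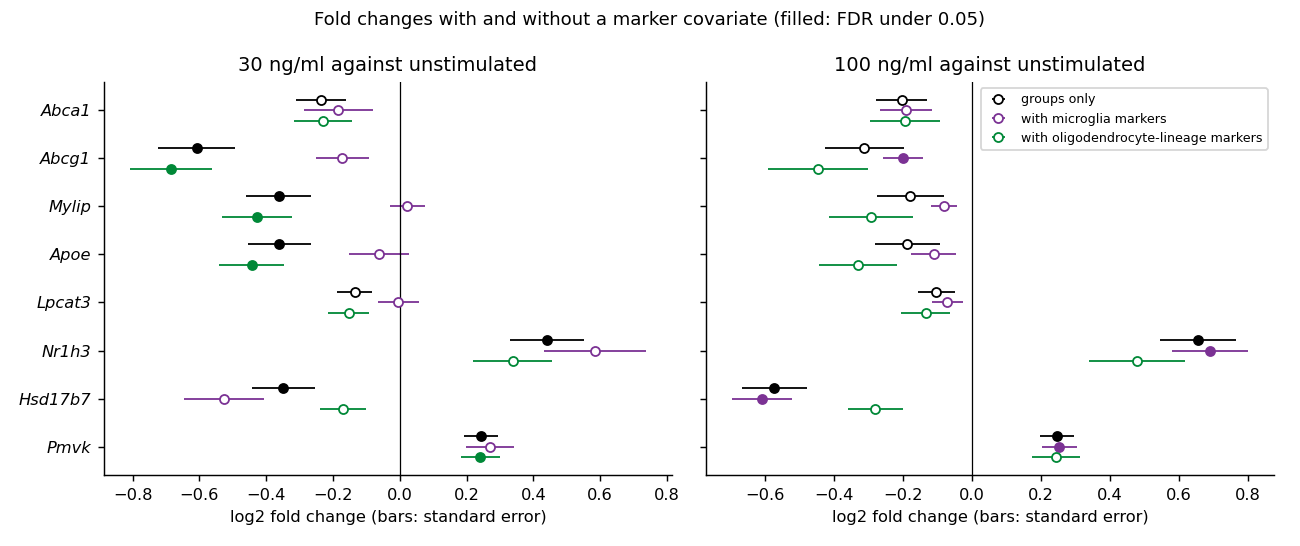
Log2 fold changes of 8 members at 30 ng/ml (left) and 100 ng/ml (right) with groups only (black), with microglia markers (purple) and with oligodendrocyte-lineage markers (green) in the fit, with bars for the standard error and filled points for an FDR under 0.05. At 30 ng/ml the purple points of *Apoe*, *Mylip* and *Lpcat3* lie within 1 standard error of 0, and at 100 ng/ml the green point of *Hsd17b7* is at -0.28 against -0.57 in black.

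Set side by side, the synthesis enzymes had a mean log2 difference from the unstimulated mean of -0.05 to 0.03 per culture without IL-12, of -0.03 to 0.12 at 30 ng/ml and of -0.08 to 0.01 at 100 ng/ml. For the LXR targets these ranges were -0.18 to 0.16, -0.43 to -0.23 and -0.36 to -0.08. The difference between both lists was not tested. The per-culture means of the enzymes overlapped between all groups, and those of the LXR targets at 30 ng/ml lay below all unstimulated cultures.

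Another 54 genes of sterol and lipid handling were listed, and all passed the filter. At 100 ng/ml 3 of 54 rose and 4 fell (13% called, against 9.77% of all genes), and at 30 ng/ml 3 rose and 6 fell (16.7%, against 7.87%). For the mean of both doses 4 rose and 7 fell (20.4%, against 11.9%). Between the doses none passed in edgeR (9 at an unadjusted p under 0.05, with 1 in DESeq2), against 0.579% of all genes. Median log2 fold changes were -0.03 and -0.01 at 100 and 30 ng/ml.

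Of 11 genes of lipoprotein uptake and sterol trafficking, *Lrp1*, a receptor for APOE-containing particles, fell at 30 ng/ml (-0.31, edgeR FDR = 0.0108), as did *Npc2*, which carries cholesterol out of lysosomes (-0.28, edgeR FDR = 0.0093). *Gramd1b*, which moves cholesterol from the plasma membrane to the endoplasmic reticulum, fell at both doses (-0.23 and -0.20 at 100 and 30 ng/ml, edgeR FDR = 0.017 and 0.0327). Of 6 genes of esterification and oxysterols, *Ch25h*, which makes an oxysterol that LXR and INSIG both bind, rose at 100 ng/ml (0.38, edgeR FDR = 0.0212), with 0.04 at 30 ng/ml (edgeR FDR = 0.853). *Cyp7b1*, which breaks such oxysterols down, rose at 100 ng/ml as well (0.33, edgeR FDR = 0.0329). *Soat1*, which esterifies cholesterol for storage, passed for the mean of both doses alone (-0.14, edgeR FDR = 0.0473).

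Of 9 further efflux and lipoprotein genes, *Lcat*, which esterifies cholesterol on lipoproteins, rose at both doses (0.37 and 0.33, edgeR FDR = 0.0109 and 0.0211). *Apoc1*, which lies in the same cluster as *Apoe*, fell at 30 ng/ml (-0.67, edgeR FDR = 0.0208), where lipoprotein lipase, *Lpl*, fell too (-0.27, edgeR FDR = 0.0342). *Apod* fell at 100 ng/ml (-0.30, edgeR FDR = 0.0413) and was at -0.30 at 30 ng/ml (edgeR FDR = 0.0501). Between the doses *Apod* was at -0.005 (edgeR FDR = 0.991), and *Lrp1*, *Npc2*, *Apoc1* and *Lpl* did not pass either. The part of microglia or oligodendrocytes in these falls was not tested.

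Of 8 genes of SREBP processing and sterol-regulated degradation, the ubiquitin ligase gene *Rnf145*, an LXR-responsive gene whose protein acts on the SREBP escort, fell at both doses (-0.30 and -0.31, edgeR FDR = 0.0013 and 0.0017), and the site proteases *Mbtps1* and *Mbtps2* did not pass. Of 12 genes of fatty acid synthesis, which SREBP1 and LXR control, *Scd2* fell at 100 ng/ml (-0.19, edgeR FDR = 0.0429) and *Me1*, which supplies NADPH, rose at 30 ng/ml (0.31, edgeR FDR = 0.0014). *Fasn*, *Acaca* and *Scd1* did not pass, at -0.03, -0.02 and -0.13 at 100 ng/ml. Of 8 genes of the isoprenoid branch, *Coq2*, of ubiquinone synthesis, rose at 30 ng/ml (0.17, edgeR FDR = 0.0288).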

How the data were processed

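RNA of 15 cultures (5 unstimulated, 5 at 30 and 5 at 100 ng/ml IL-12) was sequenced single-end from stranded poly(A) libraries. The authors deposited estimated counts and TPM per transcript. The submitters' processing notes name FastQC 0.10.0, STAR 2.7.8a, featureCounts and GRCm39, while the program behind the estimates and its use of strand are not given in the sources used here. Estimates were summed to genes through a GRCm39 annotation (99.0% of transcripts matched, with 0.677% to 0.712% of reads unmatched) and rounded, in place of the counts per gene that the design had assumed. Genes with at least 1 CPM in 2 cultures (15360) were fitted in edgeR 4.0.16 (R 4.3.3) by the quasi-likelihood test with TMM factors, one term per group and Benjamini-Hochberg adjustment, and a call was an FDR under 0.05. The standard error is the log2 fold change over the root of F. The fit was tested on simulated data. CPM used TMM library sizes, TPM are as deposited, and levels between genes were compared in TPM.

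Members, lists and markers were chosen with earlier results of these data known. All 32 members were named, those called in any comparison with every culture's value, and of the other pathway genes those called, up to 6 per list. Genes named without a call (*Fasn*, *Acaca*, *Scd1*, *Mbtps1* and *Mbtps2*) were added after their values were seen. Alternatives were DESeq2 1.42.0, the likelihood-ratio test, other scalings, filters and thresholds, effective length offsets, a replicate block, only the groups compared and each culture left out. The marker covariates were added after the data were seen.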

Additional observations from a re-analysis of the deposited data

Results flagged for a closer look

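In each of the 96 sets of 5 cultures (32 genes in 3 groups), the highest and lowest culture was compared with its nearest neighbour by Dixon's ratio of gap to range (limit 0.71). It passed in 8 sets, and chance gives about 1 in 20. *Mvk* was low in unstimulated replicate 4 (32.7 CPM) and in replicate 2 of 100 ng/ml (32.8 CPM), and *Mvd* was low in that same 100 ng/ml culture (21.2 CPM), where *Ggps1* was high (46.4 CPM). *Ggps1* was also high in unstimulated replicate 2 (47.4 CPM). *Pmvk* was high in replicate 1 of 100 ng/ml (40.7 CPM), *Insig2* low in replicate 2 of 30 ng/ml (38.3 CPM) and *Abcg1* low in replicate 3 of 100 ng/ml (44.3 CPM). The cause of these values was not tested.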

How the results depend on the processing

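Of 32 members, 5 were called at 100 ng/ml. This became 8 at an FDR under 0.1, and 3 at an FDR under 0.01, with no filter, with the replicate block or with only the groups compared. It ranged from 3 to 9 with 1 culture left out: 3 without unstimulated replicate 1, 3 or 5 or replicate 1, 3 or 5 of 100 ng/ml, and 9 without replicate 2 of 100 ng/ml, where the share of all genes called rose to 19.1%. At 30 ng/ml 8 were called, 2 at an FDR under 0.01 and 8 with the replicate block, with a range of 4 to 10 on leaving 1 culture out (5 without unstimulated replicate 3, 4 or 5 or replicate 4 of 30 ng/ml, and 4 without its replicate 5). Between the doses 0 were called, 1 by DESeq2 and 1 by the likelihood-ratio test, with a range of 0 to 1 (1 without replicate 2 of 100 ng/ml). For the mean of both doses 9 were called and 4 at an FDR under 0.01, with a range of 5 to 11 (5 without unstimulated replicate 3 or 4 or replicate 1 of 30 ng/ml). With microglia markers as a covariate, 0 members were called at 30 ng/ml and 3 for the mean, the median log2 fold change of the LXR targets was -0.062 at 30 ng/ml and -0.049 between the doses, and the log2 fold change of *Mylip* at 30 ng/ml was 0.023. With oligodendrocyte-lineage markers, 0 members were called at 100 ng/ml and 5 for the mean. The cause of these shifts was not tested.

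*Hsd17b7*, *Nr1h3* and *Pmvk* at 100 ng/ml and *Abcg1*, *Pmvk* and *Nsdhl* at 30 ng/ml kept their calls in all 24 alternatives planned for single genes, while *Msmo1* and *Mvk* at 100 ng/ml lost theirs in 14 and 15. No called member changed sign in these. Replicates with the same number share only that number: 4 of 15 pairs had deviations correlated above 0.1, 2 of 15 matched best with their own number, and the replicate block moved no other count of members by over 1.5 times.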
